A study of Mus with 21 samples.

Results

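*Prnd* and 9 genes of the brain endothelium and its barrier were followed in whole brains of mouse embryos that carried reduced doses of the cohesin regulators *Nipbl* and *Wapl*. The genes were *Prnd*, *Cldn5*, *Pecam1*, *Cdh5*, *Flt1*, *Kdr*, *Slc2a1*, *Mfsd2a*, *Abcb1a* and *Slco1c1*, taken by symbol as 10 of the 55335 rows of the deposited count table. *Prnd* was picked with its increase in *Wapl* heterozygotes over wild type already known, so its value in that contrast is a description and carries no test. The other 9 were picked by name as endothelial and barrier genes, also with earlier results of these data known. All 10 passed the filter on low counts and were counted in every library, with raw counts from 99 to 258 for *Prnd* and from 2093 to 3351 for *Slc2a1*.

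The study bred embryos lacking one copy of *Nipbl*, which loads cohesin onto chromosomes, of *Wapl*, which removes it, or of both, and asked how the transcriptome responds to each loss and to both. The 21 libraries of poly(A) RNA came from female embryos at E17.5: 5 *Wapl* +/+ *Nipbl* +/+ (*WT*), 3 *Nipbl* +/- (the labels write *Nipbl* +/delta), 7 *Wapl* Δ/+ and 6 *Wapl* Δ/+ *Nipbl* +/- double heterozygotes. The *Nipbl* null allele was produced by Cre recombination of a floxed allele in the male germ line with the *Stra8-icre* transgene. The *Wapl* deletion was made in an earlier generation with *E2a-Cre*, removes the promoter and first exons, and was backcrossed to C57BL/6J. Both losses were therefore present in every cell of the embryo, and no group isolates the vessels.

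Endothelial cells line blood vessels, and in the brain they are sealed by tight junctions and carry a dedicated set of transporters that together form the blood-brain barrier. Wnt ligands from neural cells, acting through Frizzled receptors on the endothelium, drive this program as vessels grow into the developing brain under VEGF. *Prnd* encodes Doppel, a membrane-anchored protein related to the prion protein, which is abundant in testis and is made in brain endothelial cells around birth.

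Total counts were between 25682566 and 35818767 per library. *Nipbl* stood at 54.3% and 54.8% of the *WT* mean in the groups that carry its null allele, and *Wapl* at 46.7% and 49.3% in the groups that carry its deletion. Counts of the mitochondrial gene *mt-Nd3* were either low, with 0 to 6 in 12 libraries (3 *WT*, 3 *Nipbl* +/-, 2 *Wapl* Δ/+, 4 double heterozygotes) or high, with 52 to 106 in the other 9. What these sets stand for is not given in the labels, so for *Prnd*, *Cdh5*, *Slc2a1*, *Slco1c1*, *Abcb1a* and *Flt1* values within the sets are given as well. No group is named as a pool or a repeat of another, and the *P* values measure the spread between these libraries. The study bred embryos from separate crosses and found that embryo size varied by litter. The labels give neither cross nor litter, and the tests treated the libraries as independent.

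*Prnd* was highest in *Wapl* Δ/+ brains and lowest in *Nipbl* +/- brains. In *WT* the normalized count of *Prnd* was 149.7, 159.0, 172.8, 184.3 and 164.0 in replicates 1 to 5. In *Nipbl* +/- brains it was 117.3, 96.2 and 148.3 in replicates 1 to 3. All 3 *Nipbl* +/- libraries lay below the lowest *WT* library, replicate 3 only just.

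The *Wapl* Δ/+ libraries ran from 185 to 247 normalized counts of *Prnd* with a median of 217. The double heterozygotes ran from 123 to 175 with a median of 129. The lowest *Wapl* Δ/+ library was just above the highest *WT* library, and 5 of the 6 double heterozygotes lay below every *WT* library, while replicate 4, at 175, lay within the *WT* range. Over all genes, 2.76% did not overlap between double heterozygotes and *WT*. Group means of *Prnd* were 214 ± 22.4 (SD, n = 7) in *Wapl* Δ/+, 166 ± 13.2 (SD, n = 5) in *WT*, 137 ± 19.6 (SD, n = 6) in double heterozygotes and 121 ± 26.2 (SD, n = 3) in *Nipbl* +/- brains. In that order, *WT* and double heterozygotes overlapped, as did double heterozygotes and *Nipbl* +/-, and *Wapl* Δ/+ and *WT* did not.

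**Figure D1:**
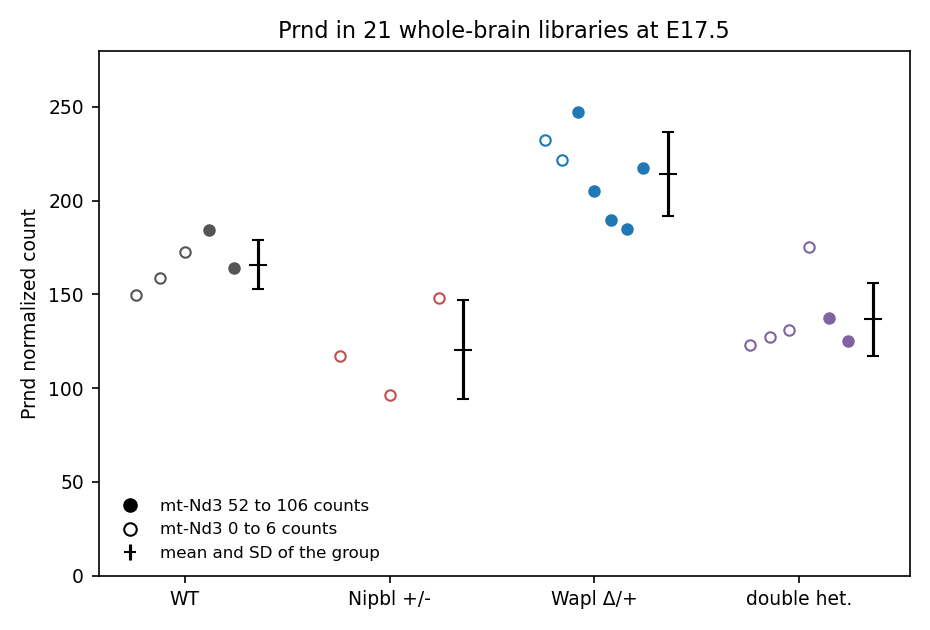
Normalized *Prnd* count (vertical axis, from 0) in each of 21 libraries by genotype, with the mean and SD of the group at its right; filled points mark libraries with high *mt-Nd3* counts. The 7 *Wapl* Δ/+ libraries sit between 185 and 247, above all 5 *WT* libraries, and the 3 *Nipbl* +/- libraries sit between 96.2 and 148, below them.

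*Prnd* fell in *Nipbl* +/- brains to 72.7% of the *WT* mean, a log2 fold change of -0.47 (SE 0.121, 95% interval -0.72 to -0.22, adjusted *P* = 0.0119, edgeR's quasi-likelihood test with Benjamini-Hochberg adjustment over all tested genes). Of 30547 genes tested in this comparison, 11.5% were called at an adjusted *P* below 0.10, and 13.4% of all genes did not overlap between the groups. The *WT* libraries of this test are also those against which *Prnd* was chosen. Within the libraries with low *mt-Nd3*, which hold all 3 *Nipbl* +/- embryos, the log2 fold change of *Prnd* was -0.42 (edgeR adjusted *P* = 0.0868), and the set with high counts holds no *Nipbl* +/- library. In bulk tissue, fewer cells of a type and less RNA per cell cannot be told apart.

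In double heterozygotes *Prnd* stood at 82.3% of the *WT* mean, a log2 fold change of -0.27 (95% interval -0.47 to -0.07) that did not pass over all genes (edgeR adjusted *P* = 0.168). The call rests on single libraries: the log2 fold change was -0.35 without double-heterozygote replicate 4 (edgeR adjusted *P* = 0.0522) and -0.28 without replicate 5 (edgeR adjusted *P* = 0.0992). It was -0.20 in the libraries with low *mt-Nd3* and -0.39 in those with high *mt-Nd3*, neither of which passed (edgeR adjusted *P* = 0.553 and 0.755).

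For *Wapl* loss, the comparison of double heterozygotes with *Nipbl* +/- brains shares no library with the contrast that chose *Prnd*. There *Prnd* was 0.19 higher on the log2 scale (SE 0.139, 95% interval -0.10 to 0.48, edgeR adjusted *P* = 0.990), and the groups overlapped, unlike in 2.19% of all genes. The value was 0.05 without *Nipbl* +/- replicate 2, 0.35 without *Nipbl* +/- replicate 3 and 0.10 without double-heterozygote replicate 4, none of which passed (edgeR adjusted *P* from 0.976 to 0.997). In the contrast that chose the gene, *Wapl* Δ/+ against *WT*, the log2 fold change was 0.37 (SE 0.0824). It was 0.50 among libraries with low *mt-Nd3* and 0.26 among those with high *mt-Nd3*. The interval of -0.10 to 0.48 holds both a change of 0.37 and no change, so it cannot separate them.

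The other contrasts of *Prnd* use the *Wapl* Δ/+ libraries that chose it and are given as values only. Double heterozygotes were lower than *Wapl* Δ/+ brains by a log2 fold change of -0.64 (SE 0.0907), and *Nipbl* +/- brains by -0.83 (SE 0.123). Neither of those groups overlapped with *Wapl* Δ/+, as was true of 0.894% and 3.69% of all genes. The departure of double heterozygotes from the sum of both single losses was -0.21 on the log2 scale (95% interval -0.53 to 0.11), and it was -0.02 without *Nipbl* +/- replicate 3 and -0.32 without *Nipbl* +/- replicate 2.

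*Prnd* lies on chromosome 2 of GRCm38 from 131950861 to 131956131, next to *Prnp*, the prion protein gene, which ends 12.4 kb before it. A further gene model, *Prn*, spans both, from 131909928 to 131956131, and stands for transcripts that join the pair. The treatment of reads on overlapping genes is not given in the sources used here, so the split of reads among these 3 rows is uncertain. *Prn* was more abundant than *Prnd*, at 649 ± 19.3 (SD, n = 5) normalized counts in *WT*, 599 ± 17.2 (SD, n = 3) in *Nipbl* +/-, 694 ± 39.5 (SD, n = 7) in *Wapl* Δ/+ and 606 ± 64.7 (SD, n = 6) in double heterozygotes.

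The means of *Prn* lay on the same sides of *WT* as those of *Prnd*, with log2 fold changes of 0.10 in *Wapl* Δ/+ and -0.12 in *Nipbl* +/- brains that did not pass (edgeR adjusted *P* = 0.292 and 0.196). When the counts of *Prnd* and *Prn* were summed, a treatment added after seeing the data, the log2 fold changes against *WT* were -0.19 in *Nipbl* +/- (edgeR adjusted *P* = 0.0216), 0.16 in *Wapl* Δ/+ and -0.12 in double heterozygotes (edgeR adjusted *P* = 0.388). The sum holds the same *Prnd* counts, so its passing in *Nipbl* +/- brains, at a smaller size, is not a separate test of the fall.

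*Prnp* itself stood at 93.1% of the *WT* mean in *Nipbl* +/-, 98.1% in *Wapl* Δ/+ and 95.3% in double heterozygotes, and passed in none of the 7 comparisons. Its log2 fold change in *Nipbl* +/- brains was -0.11 (95% interval -0.21 to -0.01, edgeR adjusted *P* = 0.203). *Sprn*, which encodes Shadoo, the remaining member of the prion protein family, fell in *Nipbl* +/- brains by 0.15 on the log2 scale and in double heterozygotes by 0.20 (edgeR adjusted *P* = 0.0569 and 0.0149). Of the 8 nearest genes on either side of *Prnd* that passed the filter, 1 was called against *WT* in any mutant group: *Slc23a2*, a vitamin C transporter 96.4 kb away, with a log2 fold change of -0.23 in *Nipbl* +/- brains (edgeR adjusted *P* = 0.000564). Over all genes, 11.5% were called in that comparison, 1.55% in *Wapl* Δ/+ and 3.36% in double heterozygotes. *Gm14281*, *Erv3*, *Gm14052* and *Gm14051* averaged only 7.60, 1.98, 0.798 and 1.33 normalized counts in *WT*, so a change of this size could hardly be called in them. *Prn*, also among the 8, overlaps *Prnd* itself.

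Against the endothelial RNA of the same libraries, *Prnd* kept its order. The summed level of the endothelial genes *Cldn5*, *Pecam1*, *Cdh5*, *Flt1* and *Kdr* was 226 ± 5.99 CPM (counts scaled to library size, SD, n = 5) in *WT*, 224 ± 15.0 (SD, n = 3) in *Nipbl* +/-, 227 ± 11.9 (SD, n = 7) in *Wapl* Δ/+ and 235 ± 18.8 (SD, n = 6) in double heterozygotes. Per 100 counts of these 5 genes there were 2.33 ± 0.137 (SD, n = 5) counts of *Prnd* in *WT*, 1.73 ± 0.499 (SD, n = 3) in *Nipbl* +/-, 3.00 ± 0.313 (SD, n = 7) in *Wapl* Δ/+ and 1.86 ± 0.351 (SD, n = 6) in double heterozygotes. The 7 *Wapl* Δ/+ libraries, from 2.66 to 3.43, lay above the 5 *WT* libraries, from 2.14 to 2.48, while the *Nipbl* +/- libraries, from 1.30 to 2.28, and the double heterozygotes, from 1.48 to 2.47, overlapped with *WT*. With 26 other endothelial genes as the denominator, *Prnd* was at 73.3%, 127% and 81.9% of *WT* in *Nipbl* +/-, *Wapl* Δ/+ and double-heterozygote brains.

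**Figure D2:**
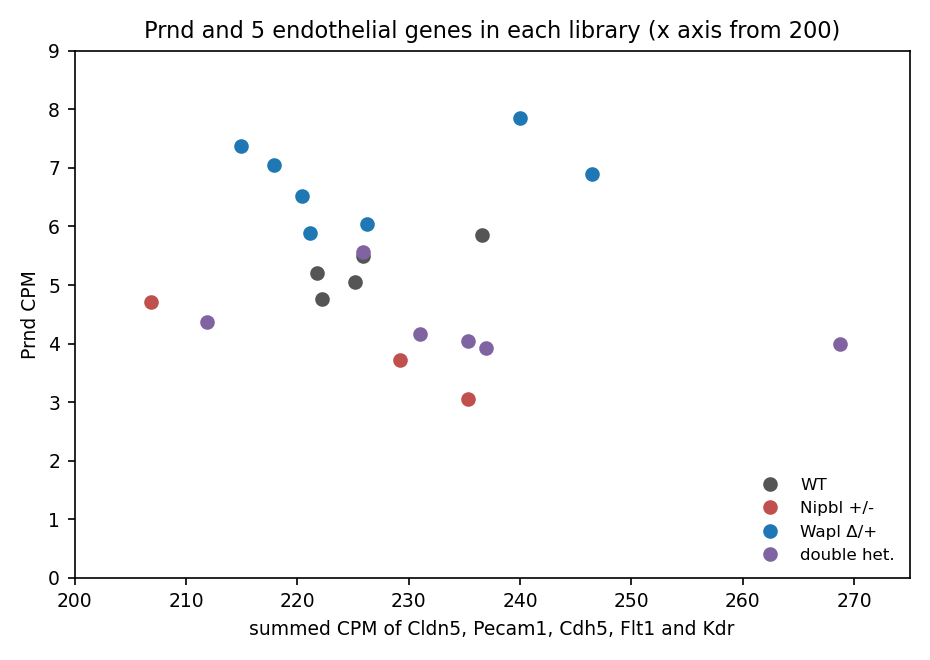
*Prnd* CPM (vertical axis, from 0) against the summed CPM of *Cldn5*, *Pecam1*, *Cdh5*, *Flt1* and *Kdr* (horizontal axis, from 200), one point per library and one colour per genotype. The genotypes separate by height more than along the horizontal axis, where group means span 224 to 235 CPM.

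Among the endothelial identity genes, *Cldn5*, *Pecam1* and *Kdr* changed little over all libraries, and *Flt1* and *Cdh5* are given below. *Cldn5* encodes claudin 5, the main tight-junction claudin of brain endothelium, *Pecam1* encodes the adhesion molecule CD31, and *Kdr* and *Flt1* encode VEGF receptors. Group means of *Cldn5* were between 98.9% and 104% of *WT*, those of *Pecam1* between 93.7% and 105%, and those of *Kdr* between 94.9% and 102%. None of the 3 was called in any of the 7 comparisons. In *Nipbl* +/- against *WT* the 95% intervals of the log2 fold change were -0.07 to 0.14 for *Cldn5*, -0.22 to 0.03 for *Pecam1* and -0.17 to 0.01 for *Kdr*.

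*Flt1* varied more from library to library, from 919 to 1385 normalized counts in *Wapl* Δ/+ and from 966 to 1591 in double heterozygotes, against 1198 to 1332 in *WT*. Its log2 fold change was -0.17 in *Nipbl* +/- brains (95% interval -0.37 to 0.03, edgeR adjusted *P* = 0.349), and without *Nipbl* +/- replicate 2, the highest of the 3, it was -0.32 (edgeR adjusted *P* = 2.31e-05). *Kdr* likewise passed without that library, at -0.15 (edgeR adjusted *P* = 0.0206). In *Wapl* Δ/+ brains *Flt1* was at -0.18 over all libraries (edgeR adjusted *P* = 0.441), at -0.42 among those with low *mt-Nd3* (edgeR adjusted *P* = 0.000109) and at -0.11 among those with high *mt-Nd3* (edgeR adjusted *P* = 0.909). The *mt-Nd3* sets follow the order in which the labels write the *Wapl* alleles in every *Wapl* Δ/+ and double-heterozygote library, so set and allele order cannot be told apart.

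*Cdh5*, which encodes VE-cadherin, the adherens-junction protein that holds endothelial cells together, rose in both single heterozygotes. In *WT* its normalized count was 1303, 1344, 1347, 1355 and 1360 in replicates 1 to 5. The *Nipbl* +/- libraries had 1633, 1455 and 1434, and the *Wapl* Δ/+ libraries ran from 1372 to 1609 with a median of 1462. All 10 of these libraries lay above every *WT* library, whose spread, 1.69% of the mean, was the smallest of the 10 genes in any group.

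The log2 fold change of *Cdh5* was 0.16 in *Nipbl* +/- brains (SE 0.0460, edgeR adjusted *P* = 0.0238) and 0.15 in *Wapl* Δ/+ brains (SE 0.0416, edgeR adjusted *P* = 0.0902). Both comparisons use the same 5 *WT* libraries. In *Nipbl* +/- the gene fell short without *Nipbl* +/- replicate 1 (0.10, edgeR adjusted *P* = 0.287). In *Wapl* Δ/+ it fell short without any single one of *WT* replicates 1 to 5 or *Wapl* Δ/+ replicates 4, 5 and 7, with log2 fold changes from 0.13 to 0.15 and edgeR adjusted *P* from 0.110 to 0.239. Within the *mt-Nd3* sets it was 0.09 (low) and 0.16 (high) in *Wapl* Δ/+ brains and passed in neither (edgeR adjusted *P* = 0.573 and 0.433).

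In double heterozygotes *Cdh5* ran from 1166 to 1715 normalized counts with a median of 1465. These libraries fell on both sides of *WT*, and the log2 fold change of 0.15 (95% interval 0.00 to 0.30) did not pass (edgeR adjusted *P* = 0.378). Without replicate 5, the one library below *WT*, it was 0.21 (edgeR adjusted *P* = 0.00235), and it was 0.19 within the libraries with low *mt-Nd3* and 0.10 within those with high *mt-Nd3* (edgeR adjusted *P* = 0.0436 and 0.944).

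*Slc2a1* encodes GLUT1, which carries glucose across the barrier and is also made by red blood cells and glia. Its normalized count in *WT* was 2211, 2244, 2177, 2258 and 2289 in replicates 1 to 5, and in *Nipbl* +/- it was 2967, 2535 and 2394. The *Nipbl* +/- libraries lay above all *WT* libraries, and *Slc2a1* rose by 0.23 on the log2 scale (SE 0.0508, edgeR adjusted *P* = 0.00597), or 118% of the *WT* mean. Without *Nipbl* +/- replicate 1, the highest library, it was 0.14 (edgeR adjusted *P* = 0.0698). Of 7 red blood cell markers edgeR called none in that comparison and 0 had an unadjusted *P* below 0.05, and their summed level ran from 339 to 680 CPM in *Nipbl* +/- and from 422 to 721 CPM in *WT*.

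In double heterozygotes *Slc2a1* ran from 2250 to 3531 with a median of 2578, and its log2 fold change of 0.26 (95% interval 0.02 to 0.51) did not pass (edgeR adjusted *P* = 0.321). DESeq2 placed the same change at an adjusted *P* of 0.0960, and it was 0.22 within the libraries with low *mt-Nd3* and 0.36 within those with high *mt-Nd3* (edgeR adjusted *P* = 0.0915 and 0.825). Without double-heterozygote replicate 6, at 3531, it was 0.17 (edgeR adjusted *P* = 0.152). In *Wapl* Δ/+ brains *Slc2a1* was at 0.12 (95% interval 0.03 to 0.21, edgeR adjusted *P* = 0.185), and at 0.15 without *Wapl* Δ/+ replicate 2 (edgeR adjusted *P* = 0.0332). Its value there was 0.02 in the low *mt-Nd3* set, where the *Wapl* Δ/+ libraries had 2316 and 2156 normalized counts, and 0.14 in the high set (edgeR adjusted *P* = 0.931 and 0.472).

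*Slco1c1*, a thyroid hormone transporter of brain endothelium and astrocytes, fell in *Nipbl* +/- brains. Its normalized count was 998, 1094 and 886 in the 3 *Nipbl* +/- libraries against 1127, 1184, 1148, 1121 and 1087 in *WT*. Replicate 2 lay within the *WT* range and the others below it. The log2 fold change was -0.20 (SE 0.0550, edgeR adjusted *P* = 0.0236), and -0.11 without *Nipbl* +/- replicate 3 (edgeR adjusted *P* = 0.297). In *Wapl* Δ/+ and double-heterozygote brains *Slco1c1* stood at 92.3% and 90.5% of *WT* and was not called (log2 fold changes of -0.11 and -0.13, edgeR adjusted *P* = 0.254 and 0.619). In the low *mt-Nd3* set these log2 fold changes were -0.20 and -0.19 (edgeR adjusted *P* = 0.141 and 0.522), and in the high set -0.05 and -0.02 (edgeR adjusted *P* = 0.909 and 0.989).

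*Abcb1a*, which encodes the drug efflux pump P-glycoprotein, fell in *Wapl* Δ/+ brains. The 7 libraries ran from 269.7 to 363 normalized counts with a median of 304, against 360, 391, 359, 409 and 369 in *WT*. Only replicate 7 of *Wapl* Δ/+ reached the *WT* range. The log2 fold change was -0.26 (SE 0.0691, edgeR adjusted *P* = 0.0830), and it fell short without any single one of *WT* replicates 1, 2, 4 and 5 or *Wapl* Δ/+ replicates 1, 4 and 5, with values from -0.28 to -0.22 and edgeR adjusted *P* from 0.129 to 0.238.

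Within the *mt-Nd3* sets the log2 fold change of *Abcb1a* in *Wapl* Δ/+ brains was -0.41 (low, edgeR adjusted *P* = 0.0224) and -0.24 (high, edgeR adjusted *P* = 0.439). The gene stood at 99.0% of *WT* in *Nipbl* +/- (95% interval of the log2 fold change -0.18 to 0.14) and at 93.6% in double heterozygotes (-0.22 to 0.04). *Mfsd2a*, a lipid transporter that also restrains transcytosis, was called in no comparison, with group means between 97.0% and 104% of *WT* and 95% intervals of -0.16 to 0.06 in *Nipbl* +/-, -0.04 to 0.15 in *Wapl* Δ/+ and -0.12 to 0.09 in double heterozygotes.

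**Figure D3:**
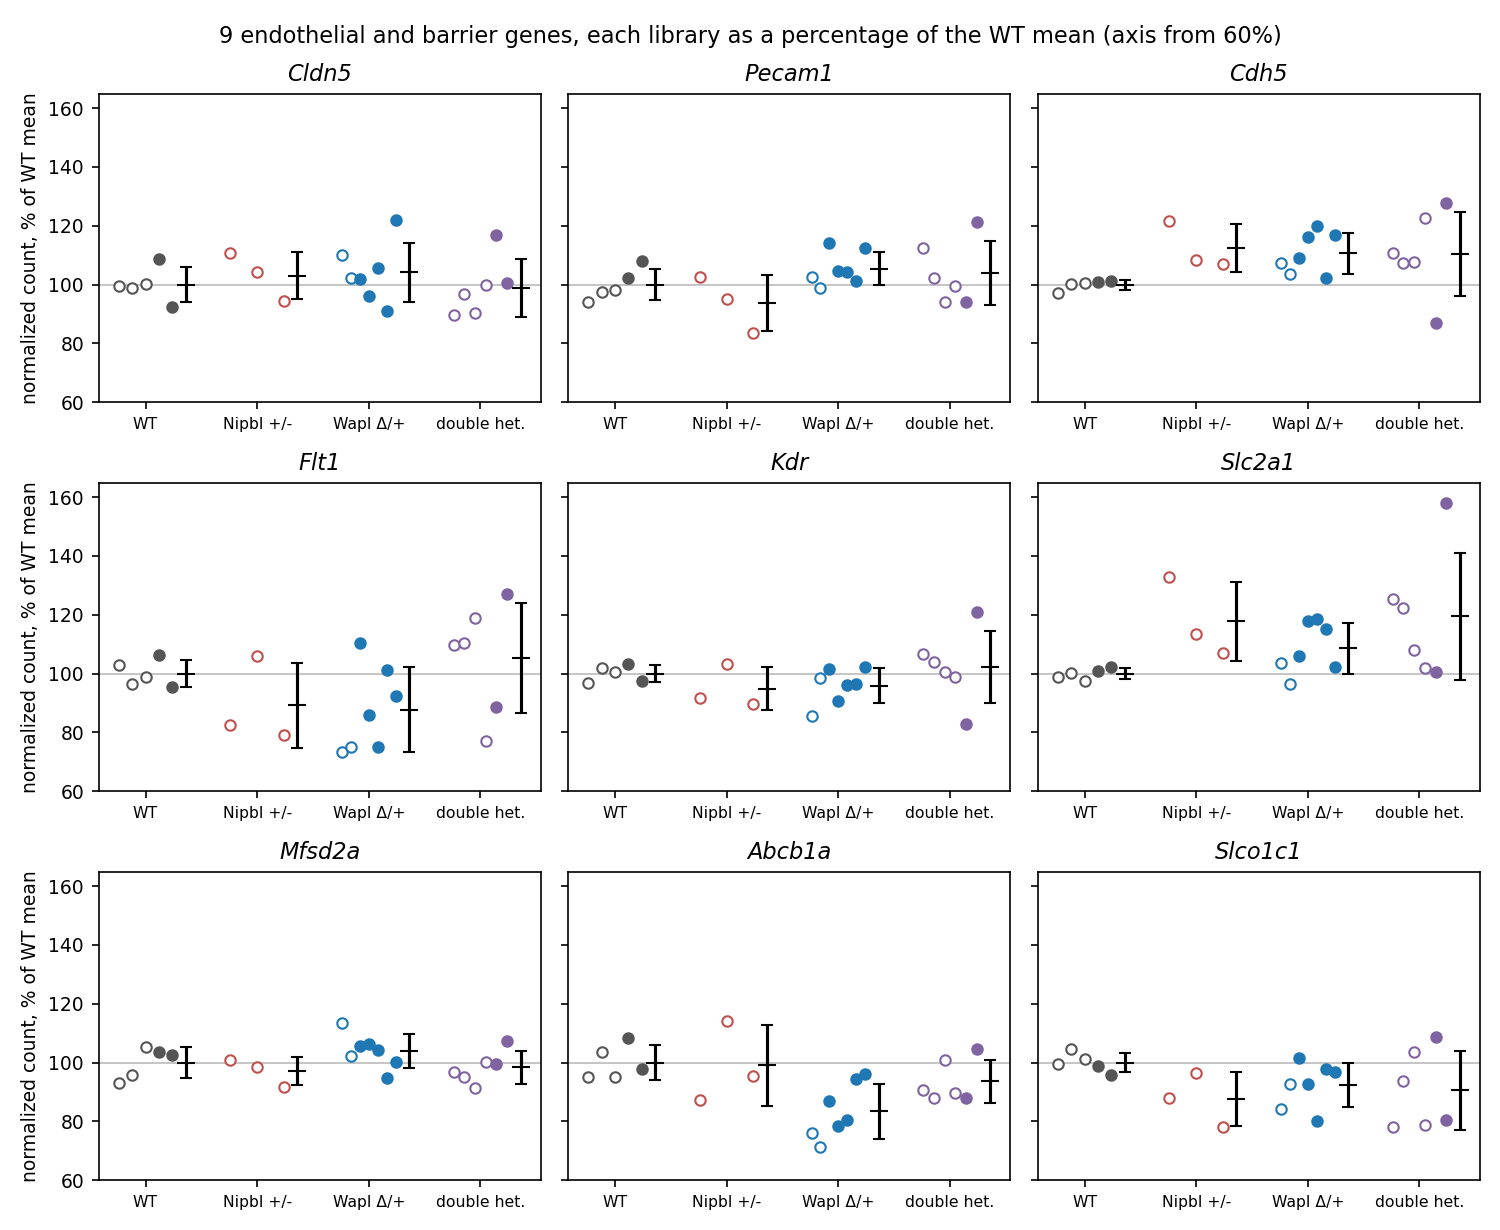
Normalized count of 9 endothelial and barrier genes in each library as a percentage of the *WT* mean (vertical axis, from 60%), by genotype, with the group mean and SD; filled points mark high *mt-Nd3* counts. *Cdh5* sits above *WT* in all *Nipbl* +/- and *Wapl* Δ/+ libraries, and the double heterozygotes spread widely in *Slc2a1*, *Flt1* and *Cdh5*.

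In all, 4 of 10 genes were called in *Nipbl* +/- against *WT* (*Prnd*, *Cdh5*, *Slc2a1* and *Slco1c1*), against the 11.5% of all genes given above. In *Wapl* Δ/+ against *WT*, where 1.55% of genes were called and 1.2% did not overlap, 2 of the 9 genes beside *Prnd* were called (*Cdh5* and *Abcb1a*). Among genes with at least 1 CPM in 3 libraries the shares called were higher. There, 4 of 10 were called in *Nipbl* +/- beside 22.9% of all genes, and 1 of the 9 in *Wapl* Δ/+ beside 3.24%. Within the low *mt-Nd3* set *Cdh5*, *Slc2a1* and *Slco1c1* stood at 0.17, 0.25 and -0.22 in *Nipbl* +/- brains (edgeR adjusted *P* = 0.0769, 0.0291 and 0.0547). One fit of all 4 groups, which share an estimate of the spread, called fewer of all genes, 5.02% in *Nipbl* +/- and 0.0196% in *Wapl* Δ/+ brains against *WT*. In it *Cdh5*, *Slc2a1* and *Slco1c1* stood at 0.19, 0.26 and -0.17 in *Nipbl* +/- brains and were not called (edgeR adjusted *P* = 0.220, 0.258 and 0.426), and *Prnd* was called at -0.44 (0.0560). *Cdh5* and *Abcb1a* stood at 0.16 and -0.24 in *Wapl* Δ/+ brains and were not called (0.289 and 0.207). The coefficient of variation was lowest in *WT* for 9 of the 10 genes and highest in double heterozygotes for 8, with medians over the genes of 4.93% and 12.5%.

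None of the 10 genes was called in double heterozygotes against *WT* by edgeR, where 3.36% of all genes were called. There, 3 of the 10 (*Prnd*, *Cdh5* and *Slc2a1*) had an unadjusted edgeR *P* below 0.05, beside 4034 of 30551 genes, and DESeq2 called 1, *Slc2a1*. In double heterozygotes against *Nipbl* +/-, where 0.00655% of all genes were called, edgeR and DESeq2 each called 0 of 10. There, 0 of 10 had an unadjusted edgeR *P* below 0.05, beside 1229 of 30547 genes. Apart from *Prnd*, edgeR and DESeq2 called none of the genes in double heterozygotes against *Wapl* Δ/+ (1.13% of all genes called) or in *Nipbl* +/- against *Wapl* Δ/+ (1.33%). At an unadjusted edgeR *P* below 0.05 were 1 and 2 of the 9, beside 2949 and 3007 of 30552 genes. The largest differences among those 9 were 0.27 for *Flt1* in the first (95% interval -0.03 to 0.57, edgeR adjusted *P* = 0.572) and 0.25 for *Abcb1a* in the second (0.05 to 0.45, edgeR adjusted *P* = 0.357). The interaction of the genotypes was called by edgeR for 0 of 30552 genes, with 4117 genes and 0 of the 10 at an unadjusted *P* below 0.05.

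**Figure D4:**
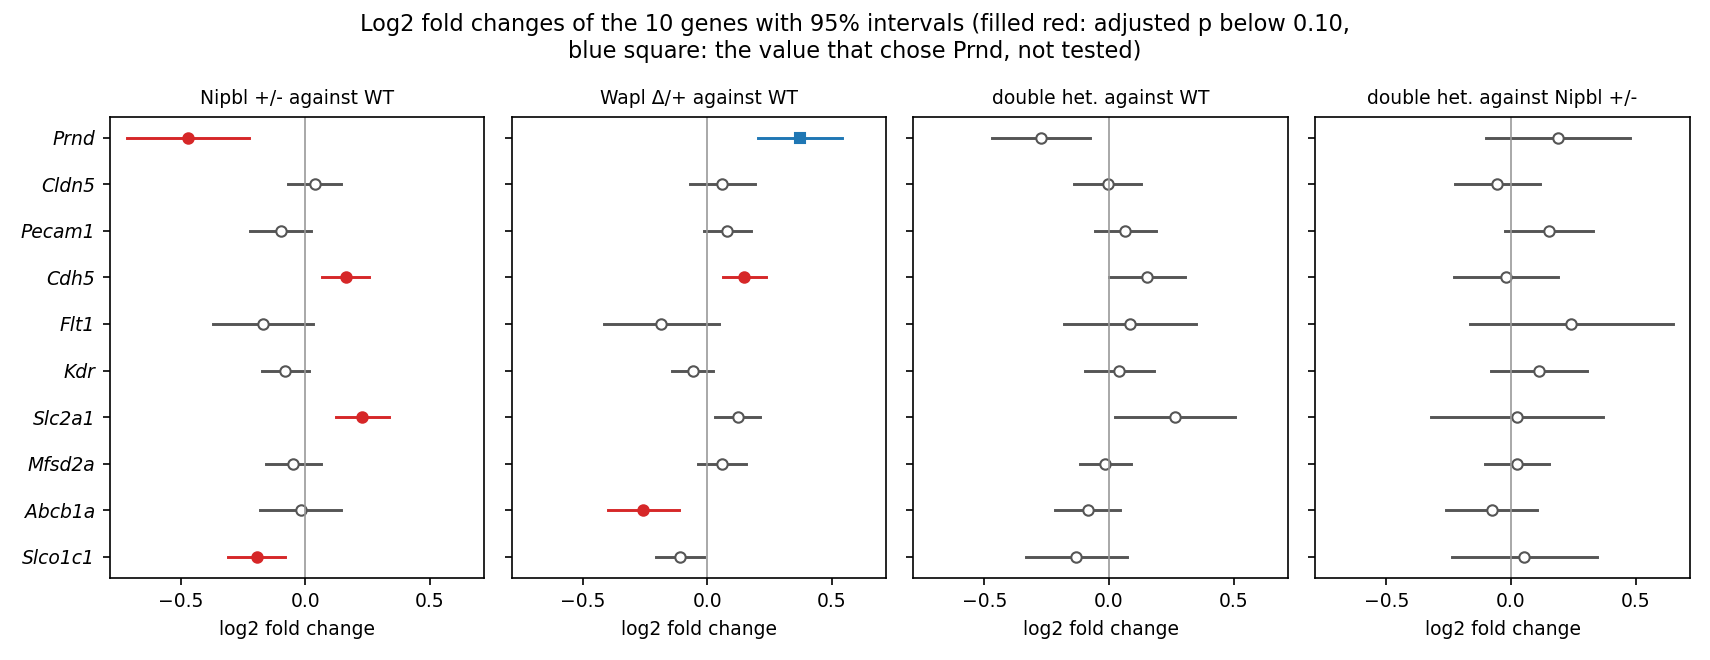
Log2 fold change (horizontal axis) with its 95% interval for the 10 genes in 4 comparisons; filled red points passed an adjusted *P* of 0.10, open points did not, and the blue square is the value that chose *Prnd* and was not tested. *Prnd* lies at -0.47 in *Nipbl* +/- and at 0.37 in *Wapl* Δ/+ brains, and no other gene exceeds 0.27 in size.

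The 10 genes did not move as a block from library to library. Over the 21 libraries, Pearson's r of log2 CPM between *Prnd* and the other 9 ran from -0.55 (*Abcb1a*) to 0.49 (*Mfsd2a*) with a median of -0.02. Among the 9 themselves it ran from -0.68 (*Cdh5* with *Slco1c1*) to 0.70 (*Flt1* with *Kdr*), with a median of 0.11 over 36 pairs. After group means were subtracted, *Pecam1* and *Slc2a1* were the pair most alike (r = 0.71). These values are descriptions over libraries that share genotype and scaling. A single library, double-heterozygote replicate 6, held the highest value of its group in 7 of the 9 genes beside *Prnd*, and *Nipbl* +/- replicate 3 the lowest in 8 of 9.

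Among 17302 genes averaging 1 CPM or more, those most like *Prnd* over the 21 libraries were *B3glct* (r = 0.88), *Pcdhb16* (0.85), *Shisa3* (0.84) and *Pcgf5* (0.82), followed by further protocadherins of that cluster, *Pcdhb3*, *Pcdhb20*, *Pcdhb13* and *Pcdhb22*. *B3glct*, a glucosyltransferase, stood at a log2 fold change of -0.15 in *Nipbl* +/- and 0.06 in *Wapl* Δ/+ brains. *Pcgf5*, a Polycomb subunit, stood at -0.37 in *Nipbl* +/- brains. Both genes were picked for following *Prnd* over these same libraries, so their values are descriptions and carry no test. Within groups, the most similar genes were instead *Dnmt3b*, *Ecd*, *Shq1* and *Spata5* (r from 0.73 to 0.78), and none of the 8 leading genes was shared between both measures. None of the 9 barrier genes came closer than rank 805 (*Mfsd2a*).

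The wider vascular program was read from 7 lists of 131 genes, of which 130 were tested (*Sele* was not). In *Nipbl* +/- against *WT*, 11 rose and 12 fell, 17.7% of the genes tested beside 11.5% of all genes. In *Wapl* Δ/+ against *WT*, 7 rose and 1 fell (6.15% beside 1.55%), and in double heterozygotes 2 rose and 5 fell (5.38% beside 3.36%). The shares of all genes depend on the filter on low counts. Among genes with at least 1 CPM in 3 libraries they were 22.9% in *Nipbl* +/-, 3.24% in *Wapl* Δ/+ and 6.76% in double heterozygotes. The shares of the lists are therefore not read as an excess. Over all genes, calls in *Wapl* Δ/+ against *WT* went from 473 to 6 in one fit of all 4 groups. They numbered 22 without *WT* replicate 1 and 12 without *WT* replicate 2. Genes of the lists were not followed in these settings or within the *mt-Nd3* sets, so their calls in *Wapl* Δ/+ may rest on single libraries. In *Nipbl* +/- brains calls went both ways among the pan-endothelial, the Wnt and Norrin, the VEGF and Notch, and the pericyte and mural genes. In *Wapl* Δ/+ brains this held only for the junction genes, and in double heterozygotes only for the pan-endothelial genes. Every rise or fall given for a gene of these lists or of a marker list is a log2 fold change.

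Among 26 pan-endothelial genes, 3 rose and 3 fell in *Nipbl* +/- brains, with a list median of 0.04 beside -0.01 over all genes. *S1pr1*, a sphingosine-1-phosphate receptor that stabilises vessels, had 874 ± 29.6 (SD, n = 5) normalized counts in *WT* and 699.6 ± 60.1 (SD, n = 3) in *Nipbl* +/- brains, and fell by 0.33 (edgeR adjusted *P* = 0.000201). *Ptprb*, the phosphatase that restrains VE-cadherin and Tie2, fell by 0.26 and *Ly6c1*, a surface protein of brain endothelium, by 0.65 (edgeR adjusted *P* = 0.00418 and 0.0102), while *Podxl*, a surface sialomucin, rose by 0.15 (edgeR adjusted *P* = 0.0263). *S1pr1* also fell in double heterozygotes, by 0.25 (edgeR adjusted *P* = 0.0115), and stood at 0.05 in *Wapl* Δ/+ brains (edgeR adjusted *P* = 0.636).

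In *Wapl* Δ/+ brains, 2 pan-endothelial genes rose and none fell. They were *Sox7*, an endothelial transcription factor, by 0.35 (edgeR adjusted *P* = 0.0463), and *Egfl7*, a matrix protein secreted by endothelium, by 0.17 (edgeR adjusted *P* = 0.0828). In both, the 7 *Wapl* Δ/+ libraries lay above all *WT* libraries. In double heterozygotes *Clec14a*, an endothelial lectin, rose by 0.28 (edgeR adjusted *P* = 0.0475).

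Of 10 tested genes of permeability and vesicle transport, 2 fell in *Nipbl* +/- brains and none rose. Both encode caveolins, the coat proteins of endothelial caveolae: *Cav2* had 342 ± 32.6 (SD, n = 5) normalized counts in *WT* and 241 ± 14.5 (SD, n = 3) in *Nipbl* +/- (log2 fold change -0.51, edgeR adjusted *P* = 0.000173). *Cav1* had 1001 ± 98.7 (SD, n = 5) and 731 ± 108 (SD, n = 3), a log2 fold change of -0.46 (edgeR adjusted *P* = 0.0457). The *Nipbl* +/- libraries of both genes lay below all *WT* libraries. *Cav2* was also lower in double heterozygotes, by a log2 fold change of -0.28 (edgeR adjusted *P* = 0.0353), and neither gene was called in *Wapl* Δ/+ brains (-0.25 for *Cav2*, edgeR adjusted *P* = 0.156).

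Of 21 genes of the Wnt and Norrin barrier program, 4 rose and 1 fell in *Nipbl* +/- brains. *Fzd4*, the receptor for Norrin, fell by 0.36 (edgeR adjusted *P* = 0.00443), with normalized counts of 341 ± 19.6 (SD, n = 5) in *WT* and 268 ± 26.1 (SD, n = 3) in the mutants. *Axin2*, a Wnt target, rose by 0.17, *Lef1*, a nuclear effector, by 0.23 and *Wnt7a*, a ligand made by neural progenitors, by 0.18 (edgeR adjusted *P* = 0.00647, 0.0210 and 0.0375). *Axin2* also rose in *Wapl* Δ/+ brains, by 0.16 (edgeR adjusted *P* = 0.0463), and *Wnt7b*, a second neural ligand, fell in double heterozygotes by 0.22 (edgeR adjusted *P* = 0.00467). Many of these genes are expressed by neural cells as well, so whole-brain values do not report the endothelium alone. The same limit holds for the other lists. *Tjp1*, *Notch1* and *Slc39a10*, given below, averaged 3281, 3126 and 4230 normalized counts in *WT*, above 2103 for *Kdr*.

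Of 22 genes of VEGF and Notch signalling, *Notch1* rose by 0.33 and *Unc5b*, a netrin receptor of tip cells, by 0.16 in *Nipbl* +/- brains, and *Angpt1*, the Tie2 ligand, fell by 0.30 (edgeR adjusted *P* = 0.000509, 0.0582 and 0.0199). In *Wapl* Δ/+ brains *Unc5b* rose by 0.24 and *Notch4*, the endothelial Notch receptor, by 0.21 (edgeR adjusted *P* = 0.0236 and 0.0564). No gene of the list was called by edgeR in double heterozygotes against *WT*, where 2 had an unadjusted *P* below 0.05, beside 4034 of 30551 genes.

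Of 22 further barrier transporters, none rose in any of the 7 comparisons. *Tfrc*, the transferrin receptor, *Slc16a1*, the lactate and ketone carrier MCT1, and the zinc transporter *Slc39a10* fell in *Nipbl* +/- brains, by 0.26, 0.26 and 0.12 (edgeR adjusted *P* = 0.00715, 0.0117 and 0.0909). *Slc40a1*, the iron exporter ferroportin, and *Slc16a1* fell in double heterozygotes, by 0.27 and 0.25 (edgeR adjusted *P* = 0.0133 and 0.0475). None was called in *Wapl* Δ/+ brains by edgeR, where 4 had an unadjusted *P* below 0.05, beside 4648 of 30550 genes.

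Of 15 junction genes, *Tjp1*, the scaffold ZO-1, fell in both single heterozygotes, by 0.14 in *Nipbl* +/- and by 0.16 in *Wapl* Δ/+ brains (edgeR adjusted *P* = 0.0378 and 0.0564). *Jup*, plakoglobin, rose by 0.13 in *Wapl* Δ/+ and *Jam3*, a junctional adhesion molecule, by 0.16 in double heterozygotes (edgeR adjusted *P* = 0.0708 and 0.0667). Of 14 pericyte and mural genes, *Rgs5*, a pericyte marker, fell by 0.27 in *Nipbl* +/- brains while *Pdgfrb*, the receptor that recruits pericytes, and *Notch3* rose by 0.13 and 0.11 (edgeR adjusted *P* = 0.0156, 0.0826 and 0.0958). *Pdgfrb* also rose by 0.19 in *Wapl* Δ/+ brains (edgeR adjusted *P* = 0.0359).

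**Figure D5:**
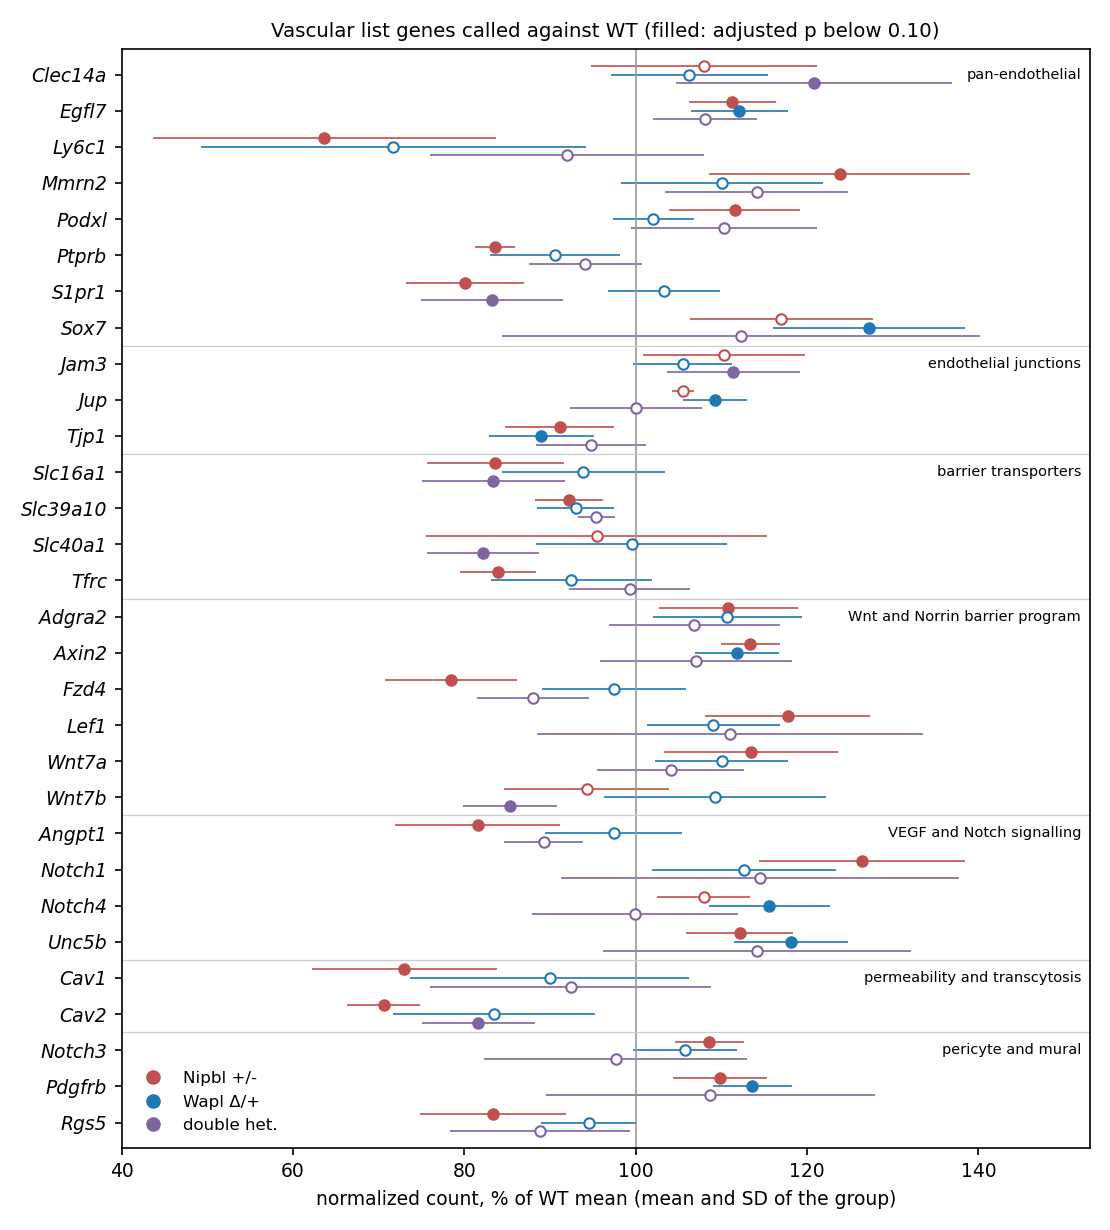
Group mean and SD as a percentage of the *WT* mean (horizontal axis, from 40%) for every gene of the 7 vascular lists called against *WT* in some mutant group; filled points passed an adjusted *P* of 0.10 in that group. *Cav1*, *Cav2*, *Fzd4* and *S1pr1* lie below *WT* and *Notch1* and *Axin2* above it in *Nipbl* +/- brains.

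Markers of other cell types moved with some of these groups, and their part in the results was not tested. The marker lists were also chosen with earlier results of these data known. Over all genes, edgeR called 11.5% in *Nipbl* +/-, 1.55% in *Wapl* Δ/+ and 3.36% in double heterozygotes against *WT*. Those at an unadjusted edgeR *P* below 0.05 numbered 6112 of 30547, 4648 of 30550 and 4034 of 30551, in the same order. Among genes with at least 1 CPM in 3 libraries more were called, as given above. In *Nipbl* +/- brains 6 of 10 microglia and macrophage markers fell, led by *Cd163* (log2 fold change -1.93, edgeR adjusted *P* = 4.35e-09), and the summed level of the list was 85.9 to 101 CPM against 113 to 127 CPM in *WT*. In double heterozygotes 2 of 10 fell, with a sum of 98.7 to 112 CPM, and in *Wapl* Δ/+ brains none was called by edgeR at a sum of 106 to 134 CPM, with 0 at an unadjusted *P* below 0.05. Of 11 meningeal fibroblast markers, *Gjb2* rose by 0.48 in *Wapl* Δ/+ brains (edgeR adjusted *P* = 0.00348), where the sum ran from 455 to 815 CPM against 424 to 566 CPM in *WT*. In that comparison 5 of the 11 had an unadjusted edgeR *P* below 0.05, and the list median was 0.15 beside -0.003 over all genes. Of the same list, *Aldh1a2* fell by 0.24 in *Nipbl* +/- brains and *Crabp2* rose by 0.27 in double heterozygotes (edgeR adjusted *P* = 0.0945 and 0.0279). Of 5 neuronal markers, *Syt1* and *Snap25* fell in *Nipbl* +/- brains (by 0.27 and 0.15, edgeR adjusted *P* = 0.00104 and 0.0339) and *Syt1* in double heterozygotes (by 0.19, edgeR adjusted *P* = 0.0110), and 1 of 8 choroid plexus markers, *Otx2*, rose by 0.25 in double heterozygotes (edgeR adjusted *P* = 0.0641). Red blood cell markers had a median log2 fold change against *WT* of 0.30 in *Wapl* Δ/+, -0.26 in *Nipbl* +/- and -0.14 in double-heterozygote brains, the same sides of *WT* as *Prnd*. Their summed level ran from 349 to 814 CPM in *Wapl* Δ/+ and from 349 to 648 CPM in double heterozygotes, and edgeR called none of the 7 in any comparison. In double heterozygotes against *Wapl* Δ/+ (median -0.51), 4 were at an unadjusted edgeR *P* below 0.05, beside 2949 of 30552 genes. Choroid plexus markers had a median of 0.18 in *Wapl* Δ/+ brains, with 1 of 8 at an unadjusted *P* below 0.05, and a sum of 615 to 993 CPM against 419.6 to 872 CPM in *WT*. No marker of these lists was at 0 in a whole group.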

How the data were processed

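The deposited table holds raw counts of paired-end 101 bp reads on genes, which the authors made from poly(A) RNA libraries with cutadapt 2.4, STAR 2.5.3a on mm10 (GRCm38.p6) and featureCounts of Subread 1.6.4. The strand setting and the treatment of reads on overlapping genes are not given in the sources used here. Groups came from the sample labels, and 1 further *Nipbl* +/- library that the authors excluded was not analysed here. Counts were normalized by TMM and tested in R 4.3.3 with edgeR 4.0.16 (quasi-likelihood test, each comparison on its own libraries, the interaction on all 4 groups) over 30552 genes whose normalized counts added up to 10 or more. An adjusted *P* (Benjamini-Hochberg) below 0.10 made a call, and intervals are 95% intervals from the same fit. The scripts were tested on simulated data. Against *WT*, 98, 99 and 99 of 100 genes changed by a log2 fold change of 1 were called in *Nipbl* +/-, *Wapl* Δ/+ and double heterozygotes. At a change of 0.5, 86, 83 and 92 of 100 were called. False calls numbered 49, 31 and 54 in the same order, more than a threshold of 0.10 stands for. The genes and lists were chosen with earlier results of these data known. From each list at most 4 called genes per comparison were named, by smallest *P*. Likeness to *Prnd* was Pearson's r of log2 CPM with a prior count of 2. Coordinates came from a RefSeq reference table for GRCm38, matched by symbol. Alternatives were DESeq2 1.42.0 and its size factors, a threshold of 0.05, other filters on low counts, one fit of all 4 groups, a replicate block, subsets by *mt-Nd3* and by allele order, each library left out and, added after seeing the data, *Prnd* and *Prn* counts summed. No sequence of these genes was used here.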

Additional observations from a re-analysis of the deposited data

Results flagged for a closer look

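Of 30 sets of 5 to 7 libraries examined (10 genes in *WT*, *Wapl* Δ/+ and double-heterozygote brains), 2 held a library far from the others by Dixon's criterion, which chance alone meets in about 1 in 20 such sets. The normalized count of *Prnd* in double-heterozygote replicate 4 was 175, with the nearest library at 137, a gap of 0.731 of the range of the group. The normalized count of *Cdh5* in *WT* replicate 1 was 1303, with the nearest library at 1344, a gap of 0.728 of the range.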

How the results depend on the processing

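Counts of called genes are set beside the share of all genes called in the same setting. In one fit of all 4 groups, 1 of the 10 genes was called in *Nipbl* +/- against *WT* (5.02% of all genes). In *Wapl* Δ/+ 0 of the 9 beside *Prnd* were called (0.0196%), and *Prnd* stood at a log2 fold change of 0.38. In *Wapl* Δ/+ against *WT*, the contrast that chose *Prnd*, a threshold of 0.05 left 0 of the other 9 genes called. Among libraries with high *mt-Nd3* 0 were called (1.05%) and *Prnd* stood at 0.26, and when summed with *Prn* it stood at 0.16. In double heterozygotes against *WT*, 1 was called by DESeq2 (3.75%), 2 among libraries with low *mt-Nd3* (2.66%) and 2 in libraries whose labels write the *Wapl* deletion first (6.25%). With single libraries left out, 0 to 3 of the 9 genes beside *Prnd* were called in *Wapl* Δ/+ (0.0393% to 5.19% of all genes), and 0 to 2 of all 10 in double heterozygotes (1.69% to 8.44%). *Prnd* ran from 0.33 to 0.41 and from -0.35 to -0.23. The cause was not tested.

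The values that changed sign belonged to genes not called over all libraries in those comparisons, and reached 0.14 in size. *Abcb1a* in *Nipbl* +/- was at 0.011 in the fit of all groups, 0.0038 with the replicate block and 0.012 in the low *mt-Nd3* set, and ran from -0.14 to 0.068 with libraries left out, *Cldn5* from -0.013 to 0.11 and *Mfsd2a* from -0.074 to 0.0019. *Mfsd2a* in *Wapl* Δ/+ was at -0.010 in the high set. In double heterozygotes *Cldn5* was at 0.13 in the high set and 0.14 with deletions written second (-0.064 to 0.030 with libraries left out), *Mfsd2a* at 0.022 and 0.072 (-0.046 to 0.0067), and *Kdr* at -0.020 with the replicate block (-0.016 to 0.092).

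Replicate numbers did not pair the samples: the deviations of 25 same-numbered pairs had a mean r of 0.039, and 3 of 21 libraries correlated best with their own number. With the replicate block, 3 of the 10 genes were called in *Nipbl* +/- (6.63% of all genes), 3 of the 9 beside *Prnd* in *Wapl* Δ/+ (5.85%) and 0 of 10 in double heterozygotes (2.08%) against *WT*, with *Prnd* at -0.43, 0.41 and -0.26. Of the 8 genes most like *Prnd*, 5 were shared with a ranking by Spearman's rho. *Prnd*, at 99 to 258 raw counts, was the least deeply counted of the 10 genes.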
